A study of Mus musculus with 1646 samples.

Results

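Among the 46517 genes counted in single mouse colon cells, 10 encode the heat shock proteins and chaperones described here: *Hspa1a*, *Hspa1b*, *Hspa8*, *Hsph1*, *Hspb1*, *Hspd1*, *Hspe1*, *Hsp90aa1*, *Dnajb1* and *Dnaja1*. They were chosen by symbol, each from its Ensembl identifier in the GENCODE vM21 annotation, and all 10 passed the filter on low counts in every comparison. The cells were 1646 mesenchymal cells of male mice aged 10 to 20 weeks, sorted without CD31, an endothelial surface protein, and sequenced by SmartSeq2, which copies full-length mRNA from a single cell. The 4 reporter lines that supplied them each carry a fluorescent protein under a promoter that labels only part of the mesenchyme: PdgfrbGFP (761 cells, 4 sorting plates), Acta2GFP (567 cells, 2 plates), Cspg4dsRED (91 cells, 1 plate) and PdgfraGFP (the other cells, 2 plates). No treatment was given, every tissue went through enzymatic dissociation and sorting, and elastase was an extra enzyme for the Acta2GFP tissue. The labels assign each cell to 1 of 8 clusters, of which 5 are fibroblasts placed along the crypt (1307 cells) and 3 are mural cells, meaning pericytes, vascular smooth muscle cells (SMC) and interstitial SMC (the other cells). The labels name no mouse, so a line was taken as 1 sample, and p-values measure the spread between lines, which also differ in strain and dissociation.

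Chaperones bind proteins that are not yet, or no longer, folded. HSP70 proteins hold exposed stretches in a cycle driven by ATP, which J-domain proteins start and nucleotide exchange factors reset, HSP90 acts later on signalling proteins, small heat shock proteins keep unfolded proteins from clumping, and the HSP60 chaperonin with its lid HSP10 folds proteins inside mitochondria. Some of these genes are transcribed all the time, while others are turned on by heat shock factors, which bind repeats of the sequence nGAAn, and several are known to rise in cells during tissue dissociation. Every sample here was dissociated, so levels in the tissue and levels set during preparation cannot be told apart.

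The DNA before 4 of the genes is printed because the results turn on their transcripts: *Hspa1a* and *Hspa1b* as a near-identical pair whose counts are hard to separate, and *Hspb1* and *Dnajb1* as the members with the largest differences between fibroblast clusters. The sequences come from RefSeq (GRCm38.p6), are given 5′ to 3′ on the strand of the gene and end at the annotated start or at the nearest annotated exon. They are the bases at chr17:34972157-34972406 (minus strand, *Hspa1a*), chr17:34959239-34959488 (minus strand, *Hspa1b*), chr5:135887669-135887918 (plus strand, *Hspb1*) and chr8:83607972-83608174 (plus strand, *Dnajb1*). Capitals mark heat shock element dimers, searched as TTCNNGAA and GAANNTTC, each of which reads the same on both strands.
Hspa1a: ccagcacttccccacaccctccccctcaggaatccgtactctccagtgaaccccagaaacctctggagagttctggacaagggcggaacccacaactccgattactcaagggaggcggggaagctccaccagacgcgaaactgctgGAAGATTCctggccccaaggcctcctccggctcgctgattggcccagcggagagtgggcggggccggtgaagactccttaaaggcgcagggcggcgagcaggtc
Hspa1b: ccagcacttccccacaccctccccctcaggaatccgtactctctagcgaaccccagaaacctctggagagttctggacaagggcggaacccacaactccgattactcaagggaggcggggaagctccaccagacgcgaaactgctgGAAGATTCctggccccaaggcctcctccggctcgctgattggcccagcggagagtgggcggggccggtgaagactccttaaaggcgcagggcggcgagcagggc
Hspb1: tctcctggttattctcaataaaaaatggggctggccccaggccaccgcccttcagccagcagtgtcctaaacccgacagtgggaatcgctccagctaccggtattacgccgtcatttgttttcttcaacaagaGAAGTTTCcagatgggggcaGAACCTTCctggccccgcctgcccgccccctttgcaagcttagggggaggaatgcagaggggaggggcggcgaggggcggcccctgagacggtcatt
Dnajb1: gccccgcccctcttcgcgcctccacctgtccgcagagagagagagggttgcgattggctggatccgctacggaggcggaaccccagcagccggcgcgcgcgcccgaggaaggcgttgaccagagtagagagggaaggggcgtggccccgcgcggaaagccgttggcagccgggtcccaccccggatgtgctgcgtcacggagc
The *Hspa1a* and *Hspa1b* stretches differed at 3 of 250 bases (98.8% identical), and each held 1 dimer, marked in capitals. *Hspb1* held 2 dimers, and the *Dnajb1* stretch held none. The table gave promoters for 8 members, all but *Hspa8* and *Hsp90aa1*. In the 250 bases before any annotated start, 7 of these 8 held a dimer, as did 14.5% of 27025 genes in the same table, and 2 of 8 (*Hspd1* and *Hspe1*) held the longer trimer, as did 0.514% of genes. These counts, for members and all genes alike, use all 250 bases, including any inside annotated exons. Cut like the printed stretches, *Hsph1* kept no dimer, and no bases were left for *Hspd1*, *Hspe1* and *Dnaja1*. The members are also not independent: *Hspa1a* and *Hspa1b* are near-identical, and *Hspd1* and *Hspe1* lie head to head and can share a site. The match is one of letters and says nothing about binding.

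Cells held 47598 to 1494292 counts. The labels were checked against markers: *Pdgfra* was at 175.3 to 1025 counts per 500000 in the fibroblast clusters and 3.56 to 25.6 in the mural clusters, *Tnc* was highest in the apex cluster (1985) and *Cd34* in the base cluster (1419), *Rgs5* in pericytes (3120) and *Hhip* in interstitial SMC (1338). The endothelial genes *Cdh5* and *Kdr*, the immune genes *Ptprc* and *Cd3e* and the epithelial gene *Cdh1* stayed below 3 counts per 500000 in every cluster, and *Pecam1*, which encodes CD31, was at 5.37 to 12.7. The highest cluster level was 15.8 for the epithelial gene *Krt8*, 5.93 for the immune gene *Csf1r* and 4.95 for the endothelial gene *Cldn5*. Counts per 500000 are the level used throughout, with each cell scaled to this total. For the members, cells were averaged within a line, and lines were averaged. Marker levels by cluster are means over all cells of a cluster, whatever their line. Plates differed in level for several members, and plate values are given below for part of the results.

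**Figure D1:**
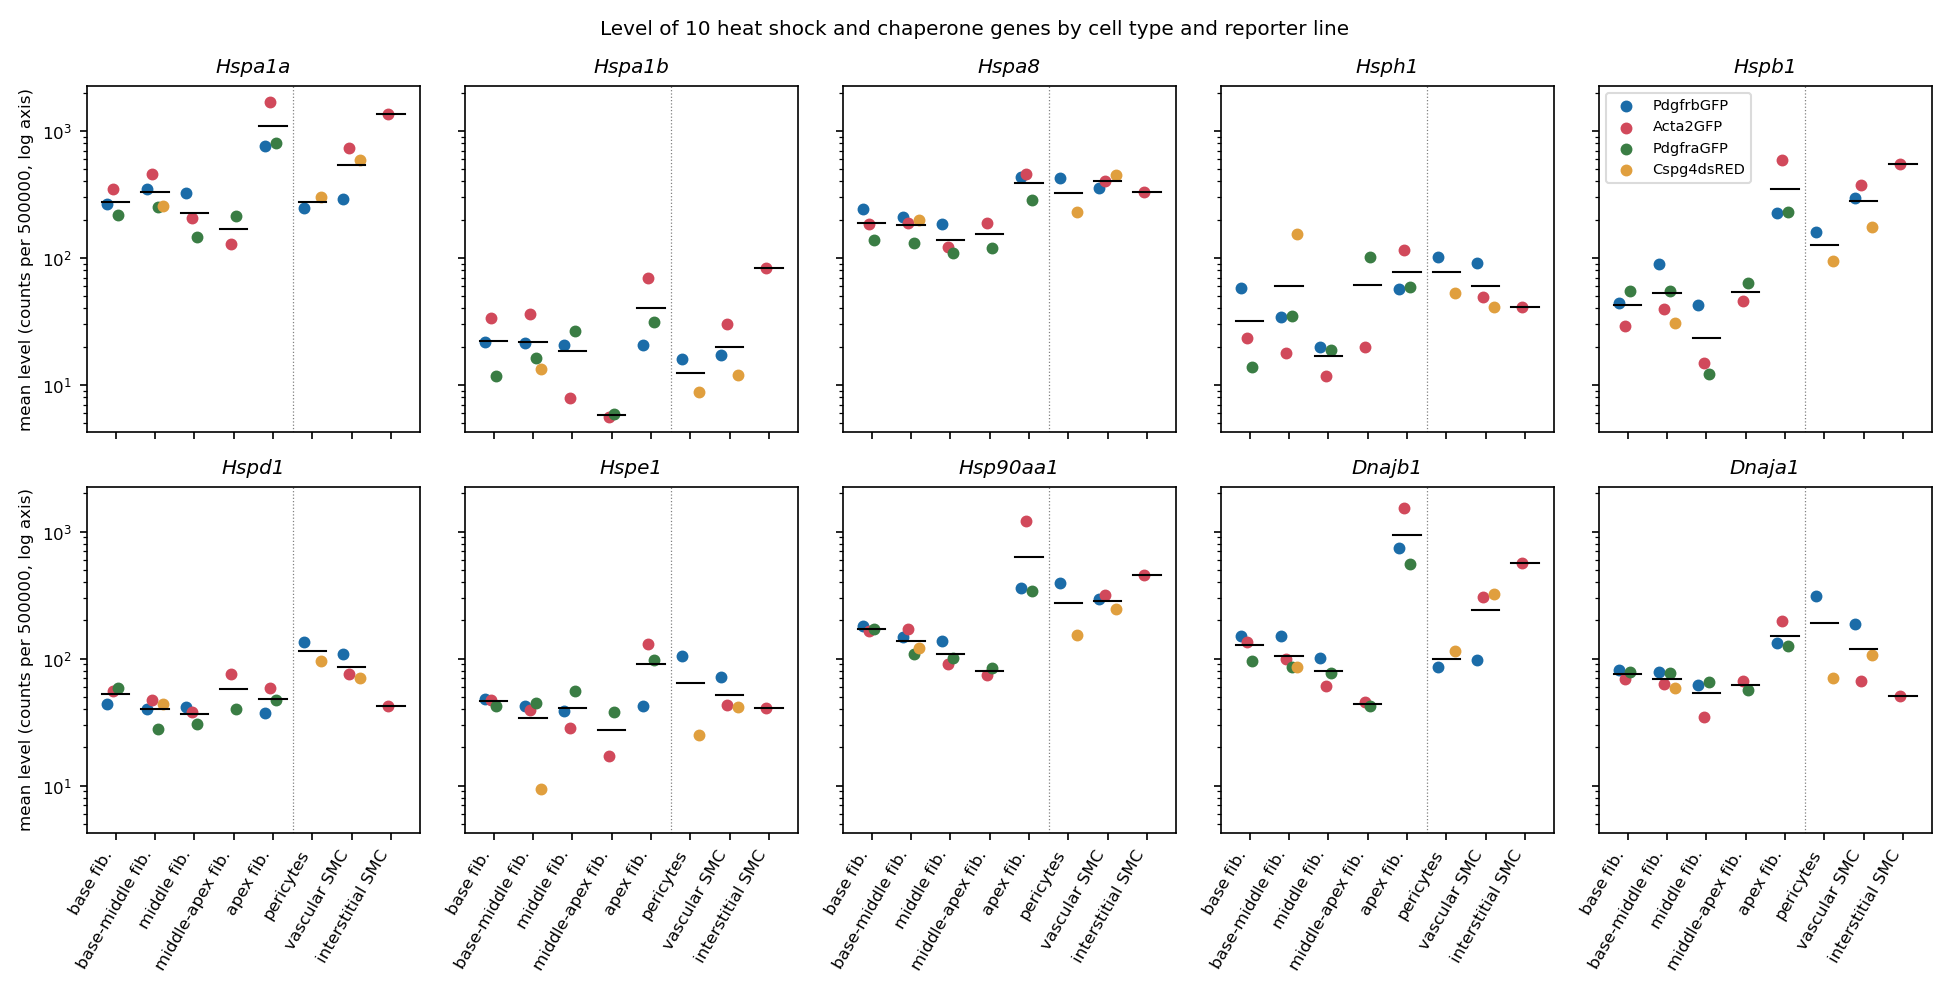
Mean level of each member (counts per 500000, log axis) in 5 fibroblast clusters and 3 mural clusters. Each point is a reporter line with at least 10 cells of the cluster, and the bar is the mean over lines. *Dnajb1* in apex fibroblasts lay between 557 and 1535, above the lines of every other fibroblast cluster, while *Hspd1* stayed between 28.1 and 75.8 in all fibroblast clusters.

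Levels of different genes are compared per kilobase of exon. In fibroblasts, *Hspa1a*, the stress-inducible HSP70, was highest with 114.6 ± 30.9 counts per 500000 per kb (SD, n = 4 lines), followed by the small heat shock protein *Hspb1* (64.7 ± 22.8), the J-domain protein *Dnajb1* (52.1 ± 18), the constitutive HSP70 *Hspa8* (45.5 ± 6.21) and the inducible HSP90 *Hsp90aa1* (43.7 ± 11.1). The mitochondrial pair came next, with *Hspe1*, the HSP10 lid, at 27.6 ± 12.4 and *Hspd1*, the HSP60 barrel, at 16.7 ± 2.30. The lowest were *Dnaja1*, a J-domain partner of HSP70, at 8.33 ± 1.18, *Hsph1*, an HSP110 nucleotide exchange factor, at 7.32 ± 5.41, and *Hspa1b* at 7.18 ± 2.57. Neighbours in this order differed by less than their combined SDs, apart from the step from *Hspd1* to *Dnaja1*. That step depends on the divisor, which counts all annotated exon bases of a gene, 8629 for *Dnaja1* and 7266 for *Hsph1*. Undivided, *Dnaja1* (71.9) and *Hsph1* (53.2) stood above *Hspd1* (44.2) and *Hspe1* (40.6). Reads that fit several genes, described below, may also affect the order. In mural cells *Hspb1* (266.6 ± 171.9, n = 3 lines) and *Hspa1a* (204.9 ± 151.3) headed the order, and their spreads overlapped.

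Across the 8 cell types, levels of a single gene are compared without the division by length. *Hspa1a* stood at 1359.9 in interstitial SMC (1 line), 1085 ± 529.9 in apex fibroblasts (SD, n = 3), 537.6 ± 228.4 in vascular SMC (n = 3), 329.2 ± 97.98 in base-middle (n = 4), 277.03 ± 66.1 in base (n = 3), 273.1 ± 38.8 in pericytes (n = 2), 225.2 ± 89.9 in middle (n = 3) and 170.2 ± 59.3 in middle-apex fibroblasts (n = 2). Within the Acta2GFP line, which supplied the interstitial SMC value, *Hspa1a* was higher in apex fibroblasts (1696) than in interstitial SMC. The lines of apex fibroblasts all lay above those of vascular SMC, and each later pair of neighbours overlapped. *Dnajb1* had a steeper order, from 944 ± 519.7 in apex fibroblasts over 563.7 in interstitial SMC and 241.8 ± 125.97 in vascular SMC to 127.05 ± 27.8 in base and 43.7 ± 2.42 in middle-apex fibroblasts. *Hspb1* stood at 548.1 in interstitial SMC, 347.04 ± 208.02 in apex fibroblasts, 282.3 ± 101.6 in vascular SMC and 127.3 ± 46.2 in pericytes, against 23.3 ± 16.8 to 54.3 ± 12.5 in the other 4 fibroblast clusters. Within Acta2GFP the *Hspb1* level was 587.2 in apex fibroblasts, above its interstitial SMC. No line of these 4 clusters reached the lower pericyte line (94.6).

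*Hspa8* was the most even of the abundant members, from 138.4 ± 39.96 in middle fibroblasts to 402.4 ± 44.6 in vascular SMC. *Hsp90aa1* ran from 79.5 ± 6.91 in middle-apex to 633.97 ± 491.4 in apex fibroblasts, and 1 line, Acta2GFP, set most of that last spread with 1201. The remaining genes had other orders: *Hspd1* was highest in pericytes (115.04 ± 27.3) and lowest in middle fibroblasts (36.9 ± 5.74), *Dnaja1* highest in pericytes (190.7 ± 170.2) and lowest in interstitial SMC (50.7), and *Hspe1* highest in apex fibroblasts (90.1 ± 44.6). These means rest on different lines, and the order did not hold within each. In pericytes *Dnaja1* was 311.05 in PdgfrbGFP but 70.3 in Cspg4dsRED, below the 105.995 of that line's vascular SMC, and within Acta2GFP it was lower in middle fibroblasts (34.5) than in interstitial SMC. *Hspe1* within PdgfrbGFP was 104.2 in pericytes and 42.2 in apex fibroblasts. Most of these pericytes came from plates colon_685s and colon_686s, and most of these apex cells from colon_073s and colon_075s. In fibroblasts *Hspe1* was 53.19 and 104.7 on the former plates, against 32.46 and 41.46 on the latter. The contrast within PdgfrbGFP is therefore also one between plates. *Dnaja1* in fibroblasts was also highest on colon_685s and colon_686s. *Hsph1* gave 77.6 ± 34.6 in pericytes and 76.9 ± 32.5 in apex fibroblasts, with 16.9 ± 4.41 in middle fibroblasts as its lowest value.

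Apex fibroblasts (cluster 2, 3 lines of 30 to 55 cells) were compared with clusters 1, 5 and 7 pooled (middle, base-middle and base, 4 lines of 26 to 532 cells), a comparison that asks which genes set the apex apart. Of the 10 members, 6 were higher in apex fibroblasts, namely *Dnajb1*, *Hspb1*, *Hsp90aa1*, *Hspa1a*, *Dnaja1* and *Hspa8*, and none was lower. Of the 15893 genes tested, 3.5% were called higher in apex fibroblasts, and 7.26% were called in either direction. The median log2 difference of the members was 1.49, beside 0.00 over all genes tested. The authors drew the clusters from these same counts, so the test is not independent of the groups.

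Among the HSP70 proteins, *Hspa1a* had 1696, 799 and 759 counts per 500000 in apex fibroblasts of the Acta2GFP, PdgfraGFP and PdgfrbGFP lines. In clusters 1, 5 and 7 it had 324.2, 200.7 and 324.9 in the same lines and 201.5 in Cspg4dsRED. The groups did not overlap, and the fitted log2 difference was 2.09 (SE 0.34, quasi-likelihood test of edgeR, Benjamini-Hochberg adjusted p = 0.00733). *Hspa8* had 459.4, 283.8 and 433.1 in apex fibroblasts, against 159.9, 122.3 and 203.1 in the same lines and 212.01 in Cspg4dsRED, a log2 difference of 1.19 (SE 0.26, adjusted p = 0.0247). Its lowest apex line stayed above all 4 lines of the other group. *Hspa1b*, the second stress-inducible copy, had 70.05, 31.3 and 20.7 in apex fibroblasts and 23.97, 20.5, 21.1 and 8.18 in the others. Here the groups overlapped, and the log2 difference of 1.52 (SE 0.59) did not pass (adjusted p = 0.179). *Hsph1* had 114.4, 58.9 and 57.4 in apex fibroblasts, against 17.04, 25.4 and 31.3 in the same lines and 117.3 in Cspg4dsRED, and its 2.30-fold difference (SE 0.64 on the log2 scale) did not pass either (adjusted p = 0.353).

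Both J-domain partners of HSP70 were higher at the apex. *Dnajb1*, the HSP40 that starts the HSP70 cycle on damaged proteins, had 1535, 557.4 and 741 in apex fibroblasts of Acta2GFP, PdgfraGFP and PdgfrbGFP, and 94.6, 82.7 and 128.5 in clusters 1, 5 and 7 of the same lines, with 80.6 in Cspg4dsRED. With a log2 difference of 3.43 (SE 0.40, adjusted p = 0.00132) it moved furthest of all members. *Dnaja1* had 196.2, 126.3 and 132.5 against 53.2, 71.8 and 71.2, with 60.04 in Cspg4dsRED, a smaller log2 difference of 1.33 (SE 0.25, adjusted p = 0.0126). Neither gene's groups overlapped.

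*Hspb1*, a small heat shock protein, was counted at 587.2, 227.9 and 226.002 in apex fibroblasts and at 26.4, 35.5 and 62.1 in clusters 1, 5 and 7, with 32.1 in Cspg4dsRED (log2 difference 3.27, SE 0.48, adjusted p = 0.00436). *Hsp90aa1* had 1201, 340.2 and 360.5 against 137.03, 111.4 and 148.5, with 127.6 in Cspg4dsRED (log2 difference 2.38, SE 0.46, adjusted p = 0.0144). The lowest apex line was above every other line for both genes. In the mitochondrial pair, *Hspd1* had 59.1, 47.1 and 37.3 against 46.1, 32.4, 41.4 and 45.3, with overlapping groups and a log2 difference of 0.26 (SE 0.34, adjusted p = 0.767). *Hspe1* had 130.4, 97.5 and 42.2 against 37.2, 49.2, 41.3 and 14.3, and its log2 difference of 1.45 (SE 0.46) passed with DESeq2 (adjusted p = 0.0351) but not with edgeR (adjusted p = 0.0965).

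**Figure D2:**
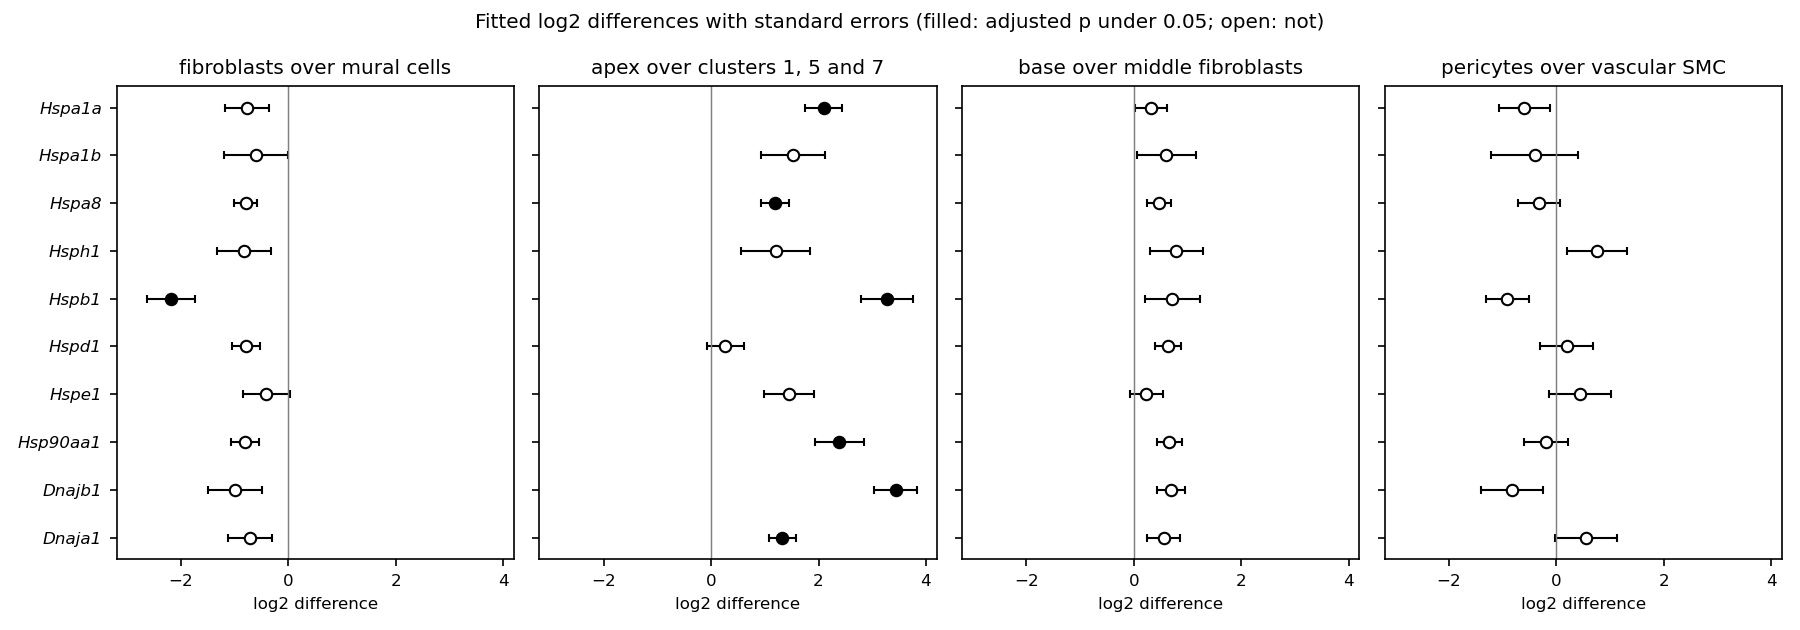
Fitted log2 differences of the 10 members with standard errors, from sums of counts per reporter line. Filled points passed an adjusted p of 0.05. In the apex comparison 6 points are filled, *Dnajb1* being furthest to the right at 3.43, and in the comparison of fibroblasts with mural cells only *Hspb1* is filled, at -2.19.

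Plates allow the same comparison within a single sort. On 5 plates there were at least 10 cells of both groups, and 8 members were higher in apex fibroblasts on 5 of 5. The ratio of apex over clusters 1, 5 and 7 ran from 2.78 to 22.7 for *Dnajb1*, from 2.93 to 43.7 for *Hspb1*, from 2.22 to 12.5 for *Hsp90aa1*, from 1.55 to 8.53 for *Hspa1a*, from 1.94 to 3.51 for *Hspa8* and from 1.13 to 4.17 for *Dnaja1*. *Hsph1* (1.61 to 5.95) and *Hspe1* (1.17 to 4.49) were also higher on each plate, and the overlap of *Hsph1* between lines came from Cspg4dsRED, which gave no apex value. *Hspd1* was higher on 4 and *Hspa1b* on 3 of 5 plates.

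**Figure D3:**
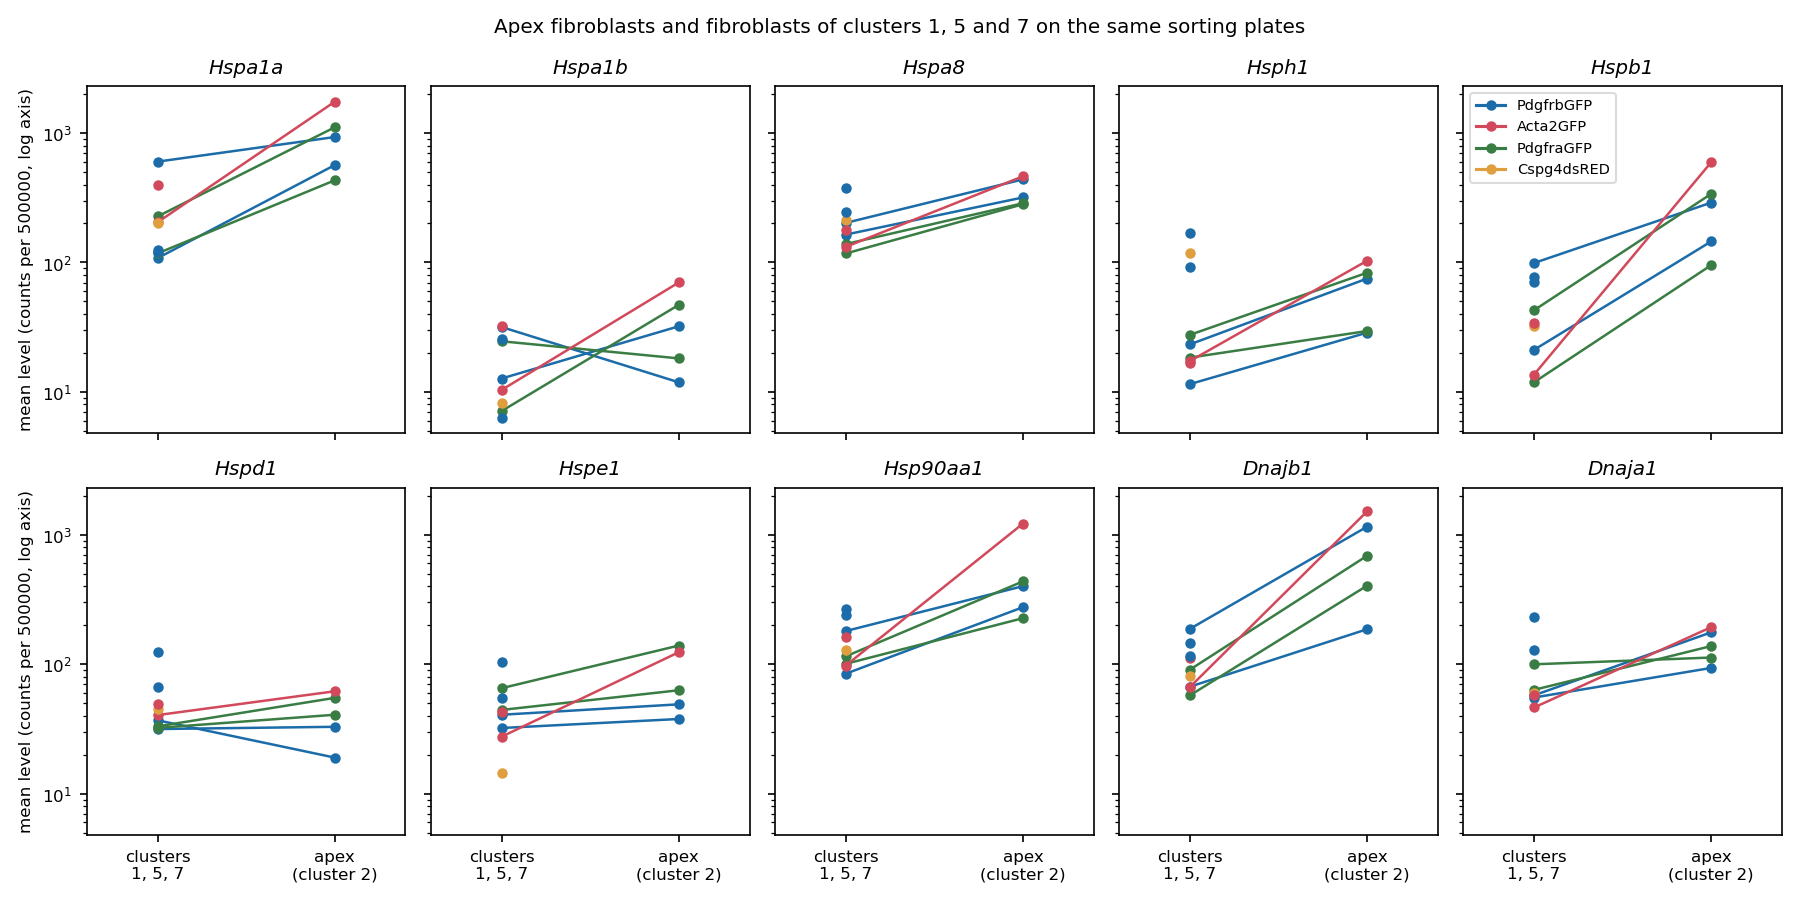
Mean level (counts per 500000, log axis) in clusters 1, 5 and 7 and in apex fibroblasts of each sorting plate, coloured by reporter line. Lines join the 5 plates with at least 10 cells of both groups, and single points are plates with no such apex value. All 5 joined lines rise for *Dnajb1*, *Hspb1*, *Hsp90aa1* and *Hspa1a*, and 3 of 5 rise for *Hspa1b*.

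The Acta2GFP line carried much of the statistical support, for genes in general and not only for the members. Leaving it out lowered the share of all tested genes called from 7.26% to 1.18%. Without it, 2 of 10 members were called (*Hspa1a*, adjusted p = 0.033, and *Dnajb1*, adjusted p = 0.016), while *Hspa8* gave an adjusted p of 0.195, *Hspb1* 0.0691, *Hsp90aa1* 0.0579 and *Dnaja1* 0.161, all still higher in the apex. Most Acta2GFP apex cells (40 of 44) came from plate colon_513s, on which the median over all cells was 117799 counts. Calls of *Hspa8* were also lost without PdgfraGFP (adjusted p = 0.0543) and without PdgfrbGFP (0.128), and those of *Dnaja1* without PdgfrbGFP (0.0585), without plate colon_075s (0.0795) and with plates as samples (0.117).

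Immediate early genes, among them those of the short-lived transcription factors FOS and JUN, respond within minutes to many stimuli, and they moved with the members. Of a list of 14, 13 were called higher in apex fibroblasts, with a median log2 difference of 1.89. Their summed level was 11090 to 16881 counts per 500000 in the 3 apex lines and 3135 to 5339 in the 4 lines of the other group. By plate, the sums were 6289 to 17413 in apex fibroblasts (5 plates) and 1574 to 9266 in clusters 1, 5 and 7 (9 plates), so the ranges overlapped. Within each of the 5 plates with both groups the sum was higher in apex fibroblasts, for example 16594 against 9266 on colon_075s and 17413 against 1574 on colon_513s. The list shares no gene with the 10 members, and its part in their difference was not tested. Marker sums of other cell types overlapped between the groups for immune genes (2.43 to 9.16 in apex lines, 2.62 to 14.4 in the others), endothelial genes (4.81 to 17.98 and 7.17 to 23.9) and epithelial genes (0.185 to 6.14 and 3.97 to 22.8). Smooth muscle genes reached 101.5 to 311.6 in apex lines and 52.03 to 167.4 in the others, and 2497 to 7402 in mural lines. Glial genes overlapped (0 to 0.183 and 0.0538 to 3.08). The following lists did not overlap. The interstitial SMC markers *Hhip* and *Rgs10* summed in apex lines to 253.8 to 355.7 against 35.2 to 77.1, and the interstitial cell of Cajal markers *Kit* and *Ano1* to 98.1 to 219.6 against 0.192 to 23.1. In the apex cluster *Rgs10* (322.3) and *Ano1* (163.01) carried these sums, with *Hhip* at 3.29 and the defining marker *Kit* at 0.348. Mural markers went the other way, at 1.06 to 35.4 in apex lines and 71.5 to 99.9 in the others. So did pericyte markers, at 15.1 to 38.4 and 51.7 to 72.9, and the 5 fibroblast markers, at 4172 to 6661 and 7382 to 8107. The part of these genes in the members' difference was not tested.

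Fibroblasts and mural cells were compared to ask which chaperones differ between the main mesenchymal classes. Of the 10 members, *Hspb1* was called lower in fibroblasts, beside 3.36% of the 19173 genes tested (6.57% in either direction). All 10 members had negative log2 differences with a median of -0.79, beside -0.03 over all genes, but 9 of them did not pass the test with edgeR. DESeq2 called 4 members lower: *Hspb1*, *Hspa8*, *Hspd1* (adjusted p = 0.0196) and *Hsp90aa1* (adjusted p = 0.0408). It also called more genes in all, 1380 of 19173 lower and 15.57% in either direction. Fibroblast sums came from 4 lines and mural sums from 3, PdgfraGFP having only 2 mural cells. With the line as a block 590 genes were called in all, against 1259 without it, and *Hspb1* was again the member called.

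*Hspb1* had 77.9, 32.7, 85.7 and 70.6 counts per 500000 in fibroblasts of Acta2GFP, Cspg4dsRED, PdgfraGFP and PdgfrbGFP. In mural cells it had 473.5, 132.8 and 218.3 in Acta2GFP, Cspg4dsRED and PdgfrbGFP. The lowest mural line was above the highest fibroblast line, and the log2 difference was -2.19 (SE 0.45, edgeR, adjusted p = 0.0185). Without the Acta2GFP line the adjusted p was 0.145, and without PdgfrbGFP it was 0.0985. *Hspa8* had 187.7, 217.6, 161.4 and 216.2 in fibroblasts and 354.6, 331.9 and 392.6 in mural cells, again without overlap, and its log2 difference of -0.80 (SE 0.22) missed the threshold (adjusted p = 0.0613). It was called with DESeq2 (adjusted p = 0.00961), with library totals alone (0.0464) and with plates as samples (0.00647).

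Several other members varied widely among the mural lines, which also differed in make-up. Interstitial SMC were 61.9% of mural cells in Acta2GFP and 2.11% in PdgfrbGFP, with none in Cspg4dsRED, and pericytes were 3.57%, 54.7% and 52.4% of them. The part of this make-up in the levels was not tested. *Hspa1a* had 1117, 437.1 and 269.5 in mural cells against 445.1, 221.6, 348.3 and 344.8 in fibroblasts, with a log2 difference of -0.77 (SE 0.41, adjusted p = 0.341). The last fibroblast value, of PdgfrbGFP, held plate colon_075s at 621.5 (250 fibroblasts) and its other plates at 119.97 to 149.99, while each PdgfrbGFP plate with at least 10 cells of both classes was higher in mural cells (221.7 to 651.7). Without colon_075s the log2 difference was -0.99 (adjusted p = 0.316 with edgeR). *Dnajb1* had 467.1, 212.99 and 90.04 in mural cells against 224.8, 90.6, 194.1 and 158.8 in fibroblasts, and *Hsp90aa1* had 405.4, 196.7 and 345.05 against 232.7, 129.6, 164.2 and 160.9. *Dnaja1* was at 56.1, 87.3 and 253.5 in mural cells, so that the PdgfrbGFP line alone was high, and at 60.8 to 83.3 in fibroblasts. Most PdgfrbGFP mural cells came from plates colon_685s and colon_686s, where *Dnaja1* was also high in fibroblasts (144.7 and 232.7). Mural cells stood at 1.79 and 1.205 times these fibroblast levels. On colon_073s of the same line *Dnaja1* was 72.45 in mural cells and 56.19 in fibroblasts. *Hspd1* (54.6, 83.5 and 121.7 in mural cells, 36.9 to 50.4 in fibroblasts) had no overlap between the groups, but its adjusted p was 0.120 with edgeR. On colon_685s and colon_686s it was 117.3 and 122.2 in mural cells, against 77.6 and 124.4 in fibroblasts. The groups overlapped for *Hspe1* (33.1 to 89.3 in mural cells, 15.8 to 59.7 in fibroblasts), *Hsph1* (42.8 to 97.9 and 25.96 to 111.3) and *Hspa1b* (10.4 to 62.8 and 10.4 to 27.8). On the 6 plates with at least 10 cells of each class, mural cells were higher on 6 of 6 for *Hspb1* (2.52 to 8.24 times), *Hspa1a* (1.51 to 5.19 times), *Hspa8* (1.12 to 2.39 times) and *Hsp90aa1* (1.01 to 2.28 times), on 5 for *Dnaja1*, on 4 for *Hspa1b* and *Hspd1* and on 3 for *Hsph1*, *Hspe1* and *Dnajb1*. Summed immediate early genes were 4845 to 9944 in mural lines and 4272 to 5626 in fibroblast lines, and 3 of the 14 (*Atf3*, *Zfp36* and *Btg2*) were called lower in fibroblasts. On each of the 6 plates their sum was higher in mural cells, for example 10885 against 2474 on colon_073s and 4265 against 2272 on colon_685s. Mitochondrial genes took 1.81% to 1.94% of counts in mural lines and 0.958% to 1.51% in fibroblast lines, without overlap, and 3690 to 5279 genes per cell were detected in mural lines against 4440 to 7217 in fibroblast lines. The part of these values in the members' difference was not tested.

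Base fibroblasts (cluster 7) were compared with middle fibroblasts (cluster 1) in 3 lines. None of the 10 members was called by edgeR or by DESeq2, beside 2.49% of 15862 genes with edgeR, and 3 members and 1990 genes in all had an unadjusted p under 0.05. DESeq2 called 8.40% of genes. With the line as a block edgeR called 1.26% of genes and again no member. All 10 log2 differences were positive, that is higher at the base, with a median of 0.62 beside -0.03 over all genes. *Hsp90aa1* had 166.2, 170.4 and 179.8 in base and 89.9, 100.2 and 137.998 in middle fibroblasts of Acta2GFP, PdgfraGFP and PdgfrbGFP (log2 difference 0.66, SE 0.24, adjusted p = 0.267). *Dnajb1* had 136.04, 95.8 and 149.3 against 61.2, 76.3 and 100.8 (log2 difference 0.69, SE 0.26, adjusted p = 0.296). Each line was higher at the base for these genes, whereas with plates as samples the log2 differences of *Hsph1*, *Hspd1*, *Hspe1* and *Dnaja1* turned negative.

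Between pericytes (2 lines) and vascular SMC (3 lines) no member was called by edgeR or DESeq2, beside 0.668% of 16328 genes called by edgeR. An unadjusted p under 0.05 was found for 1778 genes and 1 member, *Hspb1*, and DESeq2 called 5.92% of genes. *Hspb1* had 159.96 and 94.6 in pericytes of PdgfrbGFP and Cspg4dsRED and 295.3, 174.8 and 376.7 in vascular SMC of PdgfrbGFP, Cspg4dsRED and Acta2GFP, without overlap (log2 difference -0.92, SE 0.40, adjusted p = 0.438). Of the immediate early genes 5 of 14 were called lower in pericytes. Of the 56 interstitial SMC, 52 came from the Acta2GFP line, so their levels have no replicate line. Within Acta2GFP, interstitial and vascular SMC (29 cells) stood at 1359.9 and 737.1 for *Hspa1a*, 548.1 and 376.7 for *Hspb1* and 328.4 and 403.7 for *Hspa8*, with no test.

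Reporter lines were also compared within fibroblasts, with plates as samples. Apex fibroblasts were 9.11% of the fibroblasts of Acta2GFP, 24.4% of PdgfraGFP and 5.25% of PdgfrbGFP, so the lines differed in make-up, and its part in the values was not tested. Between Acta2GFP (2 plates) and PdgfrbGFP (4 plates) no member was called, beside 0% of 21590 genes, while 802 genes had an unadjusted p under 0.05, none of them a member, and DESeq2 called 4 genes higher and 29 lower and no member. Between PdgfraGFP (2 plates) and PdgfrbGFP no member was called either, beside 0% of the same genes, with 1440 genes and no member at an unadjusted p under 0.05, and DESeq2 called 1.24% of genes and no member. Both comparisons share the PdgfrbGFP plates. The largest member values were log2 differences of -1.03 (SE 0.87) for *Hsph1* in Acta2GFP and -1.12 (SE 0.87) in PdgfraGFP, both relative to PdgfrbGFP.

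Plates of a single line differed widely. Over the 4 PdgfrbGFP plates, *Hspa1a* in fibroblasts was 621.5 on plate colon_075s and 125.7, 149.99 and 119.97 on plates colon_073s, colon_685s and colon_686s. *Dnajb1* followed with 252.1 on colon_075s against 71.1, 139.3 and 115.7, and the summed immediate early genes with 9732 against 2474, 2272 and 2325. A different set was high on colon_685s and colon_686s: *Hsph1* had 90.97 and 169.1 there against 12.1 and 26.7 on colon_073s and colon_075s, *Dnaja1* 144.7 and 232.7 against 56.2 and 65.9, and *Hspd1* 77.6 and 124.4 against 35.7 and 31.5. Thus plate colon_075s was high in *Hspa1a* and low in *Hspd1*, and colon_686s was the reverse. Plates colon_685s and colon_686s held 54 and 26 fibroblasts, and colon_075s held 250. Over all 9 plates the highest fibroblast level was 14 times the lowest for *Hsph1*, 6.62 times for *Hspe1*, 5.18 times for *Hspa1a* and 2.69 times for *Hspa8*, the smallest ratio among the members.

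**Figure D4:**
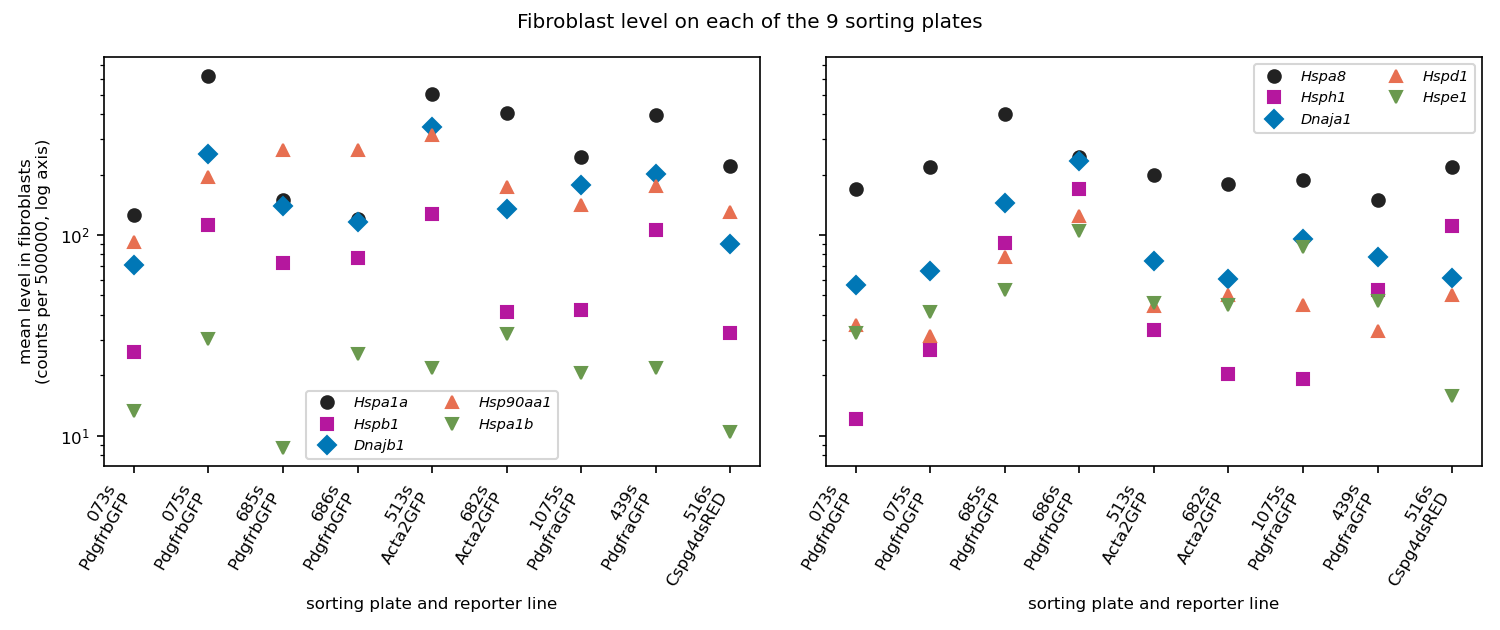
Mean fibroblast level of the 10 members (counts per 500000, log axis) on each of the 9 sorting plates, grouped by reporter line. *Hspa1a* peaks on plate colon_075s at 621.5, whereas *Hsph1*, *Dnaja1* and *Hspd1* are highest on plate colon_686s at 169.1, 232.7 and 124.4.

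Single fibroblasts varied widely in the inducible members. The *Hspa1a* level ran from 3.22 at the lowest to 1291 at the highest end of the middle 90% of 1307 fibroblasts, around a median of 194.7. For *Hspa8* the same limits were 14.1 and 488 around a median of 169.5. The tenth of fibroblasts with the highest level held 79.4% of all *Hsph1*, 65.3% of *Dnajb1* and 61.1% of *Hspb1*, but only 26.9% of *Hspa8*. These shares pool the plates, whose levels differed. A count of *Hspa8* was found in 98.7% of fibroblasts (97.9 to 99.2 as the exact 95% interval of Clopper and Pearson), and of *Hspa1a* in 98.01% (97.1 to 98.7). *Hsph1* was counted in 52.03% (49.3 to 54.8) and *Hspa1b* in 70.8% (68.2 to 73.2). By plate the share with an *Hsph1* count ran from 32.04% on colon_513s to 96.2% on colon_686s. After every cell was thinned to 50000 counts, which left out 6 shallower fibroblasts, these shares became 96.9%, 89.6%, 30.4% and 46.9%. *Ptprc* and *Cdh1*, which fibroblasts should lack, were counted in 1.53% and 6.35% of these cells, and once thinned in 0.461% and 1.61%. *Pecam1*, the gene of the protein the sort removed, was counted in 67.3% and once thinned in 38.7%, so the share for *Hsph1* lay below that of a gene these cells should lack and is not read as expression in that share of cells. The unthinned share for *Hspa1b* was close to that of *Pecam1* (64.6 to 69.8 as its interval) and is not read so either. The intervals cover counting error only, since reads without molecular identifiers are not independent molecules.

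Levels of the members also varied together from cell to cell within plates. The values are Spearman's rho across fibroblasts, averaged over the 7 plates with at least 50 fibroblasts. They are a description, since cells of a plate share preparation, depth and cluster make-up. *Hspa1a* went with *Hspa1b* (0.514), *Hsp90aa1* (0.435), *Hspa8* (0.387) and *Dnajb1* (0.332), and less with *Hspb1* (0.231) and *Hsph1* (0.199). The first value is of a pair with shared sequence, whose reads may be counted in either gene. *Hspd1* had values of 0.0409 to 0.115 with the other members. The summed immediate early genes had a rho of 0.509 with *Hspa1a* (-0.0867 to 0.72 over the plates), 0.403 with *Hsp90aa1*, 0.399 with *Hspa8*, 0.388 with *Dnajb1* and 0.0711 with *Hspd1*. Total counts per cell had a rho of -0.00168 with *Hspa1a* and of 0.169 with *Dnaja1*. Within single clusters of a plate (18 sets of at least 20 cells) the mean rho of *Hspa1a* was 0.452 with *Hspa1b*, 0.374 with *Hsp90aa1*, 0.269 with *Hspa8*, 0.255 with *Dnajb1*, 0.152 with *Hspb1*, 0.128 with *Hsph1* and 0.492 with the immediate early sum. In the same sets *Hspd1* had 0.0163 to 0.115 with the other members, and 0.0364 with its partner *Hspe1*.

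**Figure D5:**
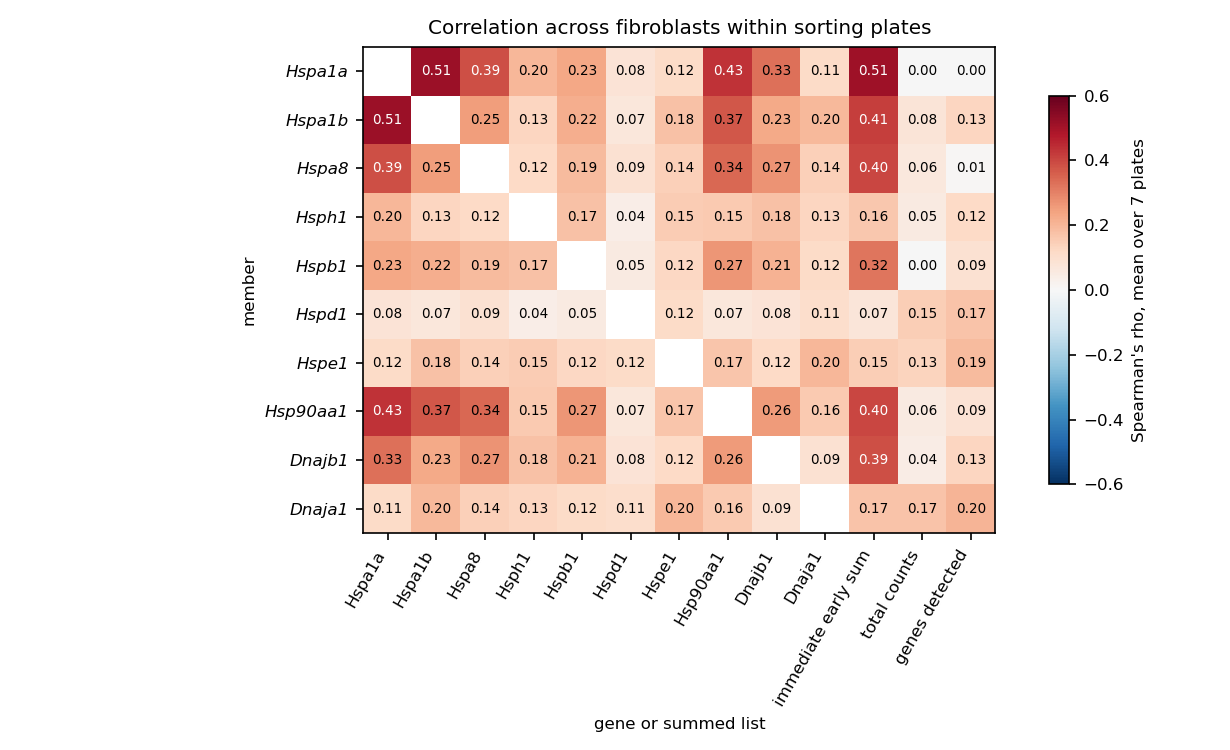
Mean within-plate Spearman's rho across fibroblasts between the members, and with the summed immediate early genes, the total count and the number of genes detected, over 7 plates. Among the members, *Hspa1a* and *Hspa1b* have the highest value (0.514), though they share sequence, and *Hspd1* stays at or below 0.115.

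Among the genes most like the summed *Hspa1a* and *Hspa1b* level, out of 7983 ranked by the same mean rho, were *Gm20481* (0.961), *Fos* (0.513), *Jun* (0.5), *Junos* (0.455), *Egr1* (0.438), *Junb* (0.433), *Dusp1* (0.399), *Ier2* (0.381) and *Nr4a1* (0.357). Over all ranked genes the median was 0.00191 and the highest 5% began at 0.0961. For the summed *Hspd1* and *Hspe1* level the highest values were much lower, from 0.196 (*Agbl5*) over *Ost4*, *Cd38*, *Ndufa8*, *Rpl29*, *Ednrb*, *Atp5mpl*, *Timp1* and *Gng5* to 0.155 (*Dstn*), with a median of 0.0288 over all genes.

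All 10 are protein-coding genes counted over their exons, and they are spread over 7 chromosomes (GRCm38, GENCODE). Besides *Hspa1a* and *Hspa1b*, the minus strand holds *Hsph1* (chr5:149614287-149636376), *Hspd1* (chr1:55077835-55088243) and *Hsp90aa1* (chr12:110690605-110702728). On the plus strand lie *Hspe1* (chr1:55088132-55091307), *Dnaja1* (chr4:40722150-40737149), *Hspb1* (chr5:135887919-135889563), *Dnajb1* (chr8:83608193-83612653) and *Hspa8* (chr9:40800984-40810087).

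Several members share sequence with other genes, which limits how reads can be assigned. *Hspa1a* (chr17:34969190-34972156) and *Hspa1b* (chr17:34956436-34959238) lie on the minus strand near each other, and 58.8% of all 50-base windows of *Hspa1a* transcripts occur unchanged in *Hspa1b*. Over all fibroblasts together, not by line, the level of *Hspa1b* was 6.14% of that of *Hspa1a*. How reads that fit both genes were counted was not stated in the sources used here. Summed into 1 feature, the pair was called higher in apex fibroblasts along with the 5 other members. *Gm20481* lies on the opposite strand with all 564 of its exon bases inside the *Hspa1a* exon, and over the same fibroblasts had a level of 35.3% of *Hspa1a*. No source states whether strand was used in counting, so reads of these genes cannot be told apart, and their rho of 0.961 is not a result about *Gm20481*. *Hspd1* and *Hspe1* lie head to head with overlapping first exons, and *Dnaja1* shares 608 exon bases with *Smu1* on the opposite strand. *Hsph1* shared no window with another transcript and *Dnajb1* 0.412%. Of *Hspb1* windows 50.1% and of *Hsp90aa1* windows 47.5% occur in other transcripts, among which the processed copies counted had at most 1.03% and 0.118% of the level of their gene in fibroblasts.

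Other chaperone genes, sorted into 10 lists by complex or compartment, showed how far the members' pattern reached. In the apex comparison 1 of 86 tested genes was called higher, *Bag3*, the exchange factor that ties HSP70 to small heat shock proteins (log2 difference 1.26, SE 0.24, adjusted p = 0.0137 with edgeR). The background was 3.5% of genes called higher and 3.76% called lower. Called lower in apex fibroblasts were the small heat shock proteins *Hspb8* (-4.88, SE 0.74) and *Cryab* (-4.22, SE 0.89) and the HSP90 co-chaperone *Fkbp5* (-2.75, SE 0.72, adjusted p = 0.0499 with edgeR). So *Hspb1* rose while *Hspb8* and *Cryab* fell. None of the 12 other J-domain proteins, 8 TRiC chaperonin subunits, 6 prefoldin subunits, 7 mitochondrial and 17 endoplasmic reticulum chaperones was called, and the list medians lay between -0.10 and 0.49.

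Between fibroblasts and mural cells, 6 of 87 other chaperones were higher and 5 lower in fibroblasts, beside 3.21% and 3.36% of all genes tested. All 17 endoplasmic reticulum chaperones had positive log2 differences (median 1.07), and 5 were called, among them the disulfide isomerases *Pdia6* (2.01, SE 0.39), *P4hb* (1.07, SE 0.21) and *Pdia3* (1.05, SE 0.26) and the J-domain protein *Dnajb11* (1.51, SE 0.35). *Fkbp5* was also higher (3.99, SE 0.92). Like *Hspb1*, the small heat shock proteins *Hspb7* (-5.34, SE 0.62), *Hspb6* (-4.51, SE 0.65) and *Hspb2* (-4.01, SE 0.61), which are abundant in muscle, were lower in fibroblasts. The myosin chaperone *Unc45a* (-1.29, SE 0.33) and the TRiC subunit *Cct7* (-0.97, SE 0.24) were lower as well. Between base and middle fibroblasts *Hspb8* was the only other chaperone called among 86 (1.74, SE 0.26, higher at the base), and among 87 in pericytes against vascular SMC, and 89 between lines, none was called.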

How the data were processed

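Single colon cells were sequenced by SmartSeq2, 1 library per cell. The authors aligned reads with TopHat2 (genome GRCm38), assigned them to genes with featureCounts, removed cells outside their quality limits and deposited raw counts without normalization for 46517 genes and 92 ERCC spike-ins, which took 1.36% of all counts and were left out here. No further cell was removed and no doublet caller was run.

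Levels of the members are counts scaled to 500000 per cell, first averaged within each line and class (at least 10 cells) and then over lines. Marker levels by cluster are means over all its cells. For tests, raw counts were summed per class and line (between lines: per plate), scaled with TMM, filtered with filterByExpr and compared with edgeR 4.0.16 (glmQLFit, glmQLFTest; R 4.3.3). Benjamini-Hochberg adjustment ran over all genes tested, with a threshold of 0.05, and the standard error is the log2 difference divided by the square root of F. The scripts were tested on simulated data, with 50 genes changed by each of several log2 differences. Over the comparisons, 0 to 2 of 50 were recovered at a log2 difference of 1 and 6 to 20 at 2. At 4 the test recovered 22 to 46, and at -4 it recovered 3 to 24. The low ends at 2, 4 and -4 came from pericytes against vascular SMC. A member that was not called may therefore still differ. The summed counts ranged from 4616288 to 217742647. The authors' own test took cells as replicates.

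Sums from the same line can stem from the same mice. Deviations from the class means correlated within lines by 0.152 to 0.175 for fibroblasts and mural cells and by 0.133 to 0.171 for base and middle fibroblasts, so in these the lines pair the sums. The pairing comes from the reporter line in the labels. Printed log2 differences, standard errors and adjusted p come from fits without the line as a block, unless a block is named, so they do not use this pairing.

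The members and the lists of other genes were chosen with earlier results of these data known. Named were all 10 members, up to 4 called genes of each other list with the lowest adjusted p, and the 10 genes most correlated with *Hspa1a* plus *Hspa1b* and with *Hspd1* plus *Hspe1*, of which 1 is not reported here. Alternatives were DESeq2 1.42.0, library totals, no filter, the line as a block, plates as samples, single clusters, sums of at least 50 cells and leaving out each line or plate.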

Additional observations from a re-analysis of the deposited data

Results flagged for a closer look

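Of 50 groups of 4 to 9 samples examined, 7 held a member's level with a wide gap to the rest by Dixon's criterion, and chance alone gives about 1 in 20. *Hspa1a* in fibroblasts of the 4 PdgfrbGFP plates was 621.5 on plate colon_075s, with 120 to 150 on the others. Over the 9 plates, *Hspa8* was 400.3 on plate colon_685s with 148.8 to 244.9 elsewhere, and on plate colon_686s *Hspd1* was 124.4 with 31.5 to 77.6 elsewhere and *Dnaja1* was 232.7 with 56.2 to 144.7 elsewhere. In base-middle fibroblasts of the 4 lines, Cspg4dsRED stood apart in both directions, high in *Hsph1* (153.7, others 17.9 to 34.8) and low in *Hspe1* (9.358, others 39.2 to 44.5), from 13 cells of that line. *Hspb1* in mural cells was 584.1 on plate colon_513s, with 132.8 to 284.4 on the other 5 plates. Interstitial SMC were 75.5% of its mural cells, 38.7% on colon_682s and fewer elsewhere. What made these plates differ was not tested.

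The ratio of the *Dnajb1* level in mural cells over that in fibroblasts lay on opposite sides of 1 in 2 lines. It was 1.395 and 3.273 on the plates of Acta2GFP, and 0.3193, 0.6115 and 0.8604 on those of PdgfrbGFP. Mural cells were 61.9% interstitial SMC in Acta2GFP and 54.7% pericytes in PdgfrbGFP, against 2.11% and 3.57% in the other line. The difference between the lines, and the part of this make-up in it, was not tested.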

How the results depend on the processing

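Shares of all genes tested are given in brackets beside the members called. In the apex comparison (7.26% in the main fit) DESeq2 called 7 members (15.4%), library totals alone 6 (7.49%), no filter 6 (3.55%) and plates as samples 5 (12.1%). Leaving out a line gave 2 to 6 (1.18% to 7.60%), the lowest without Acta2GFP. Of fibroblasts against mural cells, 1 member was called (6.57%), but 4 with DESeq2 (15.57%), 2 with library totals alone (6.53%) and 2 with plates as samples (16.1%). When a line was left out it was 0 to 1 (1.81% to 5.81%). With the line as a replicate block 6 and 1 members were called in these comparisons (5.73% and 3.08%), as without it, and the block changed no other call of a member. In the apex comparison (911 genes called with the block, 1154 without; deviations correlated by 0.0851 to 0.115) and in pericytes against vascular SMC (1.04% and 0.668% of genes; 0.15 to 0.157 over 2 lines) the lines were not taken as pairs, although sums of a line can share plates. No paired analysis was possible between lines because each plate belongs to 1 line. Alternatives added after seeing the data called 5 and 1 members without plate colon_075s (6.93% and 6.59%) and 6 and 1 with *Hspa1a* and *Hspa1b* summed (7.27% and 6.57%). In the other 4 comparisons no alternative called a member.

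Log2 differences that changed sign were never called, and the cause was not tested. With plates as samples these were *Hspd1* in the apex comparison (-0.066), *Hsph1* (-0.40), *Hspd1* (-0.21), *Hspe1* (-0.27) and *Dnaja1* (-0.37) for base against middle, and *Hsp90aa1* (0.0265) for pericytes against vascular SMC. Leaving out a line gave *Hspa1b* -0.84 to 0.15 for fibroblasts against mural cells and -0.074 to 1.06 for base against middle; for pericytes against vascular SMC it gave *Hspa8* -0.69 to 0.090, *Hspd1* -0.15 to 0.42, *Hsp90aa1* -0.78 to 0.23 and *Dnaja1* -0.0095 to 1.09. For Acta2GFP against PdgfrbGFP, leaving out a plate gave *Hspb1* -0.96 to 0.72, *Hsp90aa1* -0.26 to 0.63 and *Dnajb1* -0.14 to 1.29. Cluster 1 alone gave *Hspa1a* -0.35, *Hspa1b* -1.34, *Hspb1* -1.60, *Hsp90aa1* -1.03 and *Dnajb1* -0.66, and cluster 5 alone *Hspb1* -1.49, *Hsp90aa1* -0.39 and *Dnajb1* -0.80. For PdgfraGFP against PdgfrbGFP, leaving out a plate gave *Hspa1b* -0.0040 to 0.70, *Hspb1* -1.26 to 0.69 and *Hspe1* -0.22 to 0.42. No filter gave *Hspb1* -0.0071, cluster 1 alone *Hspa1a* -0.68, *Hspb1* -1.60 and *Dnajb1* -0.46, and cluster 5 alone *Hspb1* -0.61, *Hspe1* -0.42 and *Dnajb1* -0.46. Levels from pooled counts moved by less than 1 SD in 20 of 20, and thinning to 50000 counts moved all 20 shares of cells with a count. At 2 to 4 sums a group, differences within the spread between lines were not detectable, and in simulated data most log2 differences of 2 were missed.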
